A study of Mus musculus with 4 samples.

Results

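The NMDA receptor subunits are encoded by 7 mouse genes, Grin1, Grin2a, Grin2b, Grin2c, Grin2d, Grin3a and Grin3b. They were taken by name from the 21951 protein-coding genes of the annotation (GENCODE M21, mouse build mm10). Every m6A peak over one of their exons was followed, together with its place on the spliced transcript, its presence in the other replicate and its fold enrichment. The samples were whole brain of C57BL/6J mice aged 4 weeks, and the design text of the series gives their genotype as Prrc2a flox/flox, with no Cre driver named in the labels. The 4 samples were 2 of m6A immunoprecipitation (IP) and 2 of input RNA, and each IP sample came with its own list of peaks called against its input. A single condition was sampled, so that the comparisons below are between genes, between stretches of a transcript and between the 2 replicates.

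N6-methyladenosine (m6A) is a methyl mark on adenosine that is laid down on nascent mRNA at short motifs built around GGAC, and it is known to gather near stop codons and in long internal exons. In m6A-seq, fragmented mRNA is pulled down with an antibody to the mark, and stretches with more IP reads than input reads are called as peaks. NMDA receptors are glutamate-gated cation channels of excitatory synapses. GluN1, the product of Grin1, is present in each receptor and binds the co-agonist glycine. The GluN2 subunits (Grin2a to Grin2d) bind glutamate and differ in where and when they are expressed. Their long intracellular C-terminal tails, which bind scaffold proteins and kinases, are encoded largely by the last coding exon. The GluN3 subunits (Grin3a and Grin3b) bind glycine and lower calcium entry.

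Peaks were called over exons of all 7 genes in both replicates. Exonic peaks numbered 28 in the first list and 26 in the second. A peak was termed shared where at least 1 bp of it was also inside a peak of the other list, and the bases common to both were termed a shared interval. In replicate 1, 22 of the 28 peaks (78.6%, 95% Wilson interval 60.5 to 89.8%) were shared, beside 67.8% of all exonic peaks. In replicate 2, 22 of the 26 peaks (84.6%, 66.5 to 93.9%) were shared, beside 76.8% of all exonic peaks, a background that lies inside the interval in both replicates. The overlaps formed 23 shared intervals, with at least 1 in each gene, while 45.5% of all protein-coding genes held one. The count was 4 for Grin1, 4 for Grin2a, 7 for Grin2b, 1 for Grin2c, 2 for Grin2d, 4 for Grin3a and 1 for Grin3b. The lists hold no read counts, so that the depth behind a peak is unknown, and a missing peak can stand for little RNA or for little methylation.

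Fold enrichment is a linear ratio of IP over input and ran higher in replicate 1. Over all exonic peaks of replicate 1 the median was 2.71 and the quartiles were 2.03 and 3.75. Those of replicate 2 had a median of 2.17, with quartiles of 1.73 and 2.76. Values were therefore read within a replicate or as log2 values from which the median of that replicate had been subtracted. On this scale the SD between replicates was 0.335 over 20999 matching pairs of exonic peaks, which equals 1.26-fold, and it served as the error of a single value. It leaves out peaks called in a single list. Differences given below as multiples of the error are descriptions and not tests. Of the tissue markers checked, shared exonic peaks lay over 6 of 7 genes of neurons (Gad1 had none), 4 of 4 of astrocytes, 4 of 4 of oligodendrocytes and 3 of 3 of microglia, and over 1 of 5 genes of other organs (Myh6). In whole brain, fewer cells that express a subunit and less RNA per cell cannot be told apart.

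By the mean of the centred log2 values of both replicates, the 3 highest exonic intervals of the family lay in coding sequence (CDS). They were in the last coding exon of Grin2a (1.08), exon 3 of Grin3a (1.07) and the last coding exon of Grin2b (0.72). Shared peaks in introns are left out of this ranking. A pair of them in intron 3 of Grin2a had 1.19 in replicate 1 and 1.08 in replicate 2. The order of the exonic intervals depends on that scale. A Grin2b 3′UTR interval followed at 0.68. Intervals of Grin2d, Grin3a exon 1 and the Grin2b 3′UTR were above the Grin2b last exon in replicate 1. The GGACT matches of the 3 highest exonic intervals are shown because GGACT contains the GGAC core of the m6A motif. A match is not a mapped methylation site. GGAC before another base is not printed. Over all shared intervals of each gene, GGAC occurred 15 times in Grin2a, 25 in Grin2b and 20 in Grin3a, against 5, 4 and 6 for GGACT. Each line gives 25 nt of the spliced transcript from 5′ to 3′ with GGACT in capitals, and all 3 genes lie on the minus strand of mm10. The first pair of lines holds 2 matches that fall on the same codon when the GluN2A and GluN2B proteins are aligned.
Grin2a codon 1146, chr16:9578773-9578797: ctgagaatgtGGACTtcccagatac
Grin2b codon 1150, chr6:135733086-135733110: gggagcacgtGGACTtgactgacat
Grin2a codon 916, chr16:9579463-9579487: cctcgcgaatGGACTcacccaaaag
Grin2a codon 1097, chr16:9578920-9578944: aataccccaaGGACTgtagtgaggt
Grin2a codon 1162, chr16:9578725-9578749: tccgcaagggGGACTccacactgcc
Grin2a codon 1270, chr16:9578401-9578425: cctaccagcaGGACTggtcacagaa
Grin2b codon 923, chr6:135733767-135733791: agagtgccctGGACTtcatccgccg
Grin2b codon 1418, chr6:135732282-135732306: aaacaaggccGGACTtccgggccct
Grin3a codon 479, chr4:49771324-49771348: aagccaatgtGGACTcgcctgggta
Grin3a codon 492, chr4:49771284-49771308: ggattgtcatGGACTcgggaatatg
Grin3a codon 614, chr4:49770919-49770943: aatggtcactGGACTgggctggttg
Grin3a codon 659, chr4:49770784-49770808: atcttagtgaGGACTcgagacacag
Grin3a codon 741, chr4:49770538-49770562: cctaaatgctGGACTggaagatttc

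**Figure D1:**
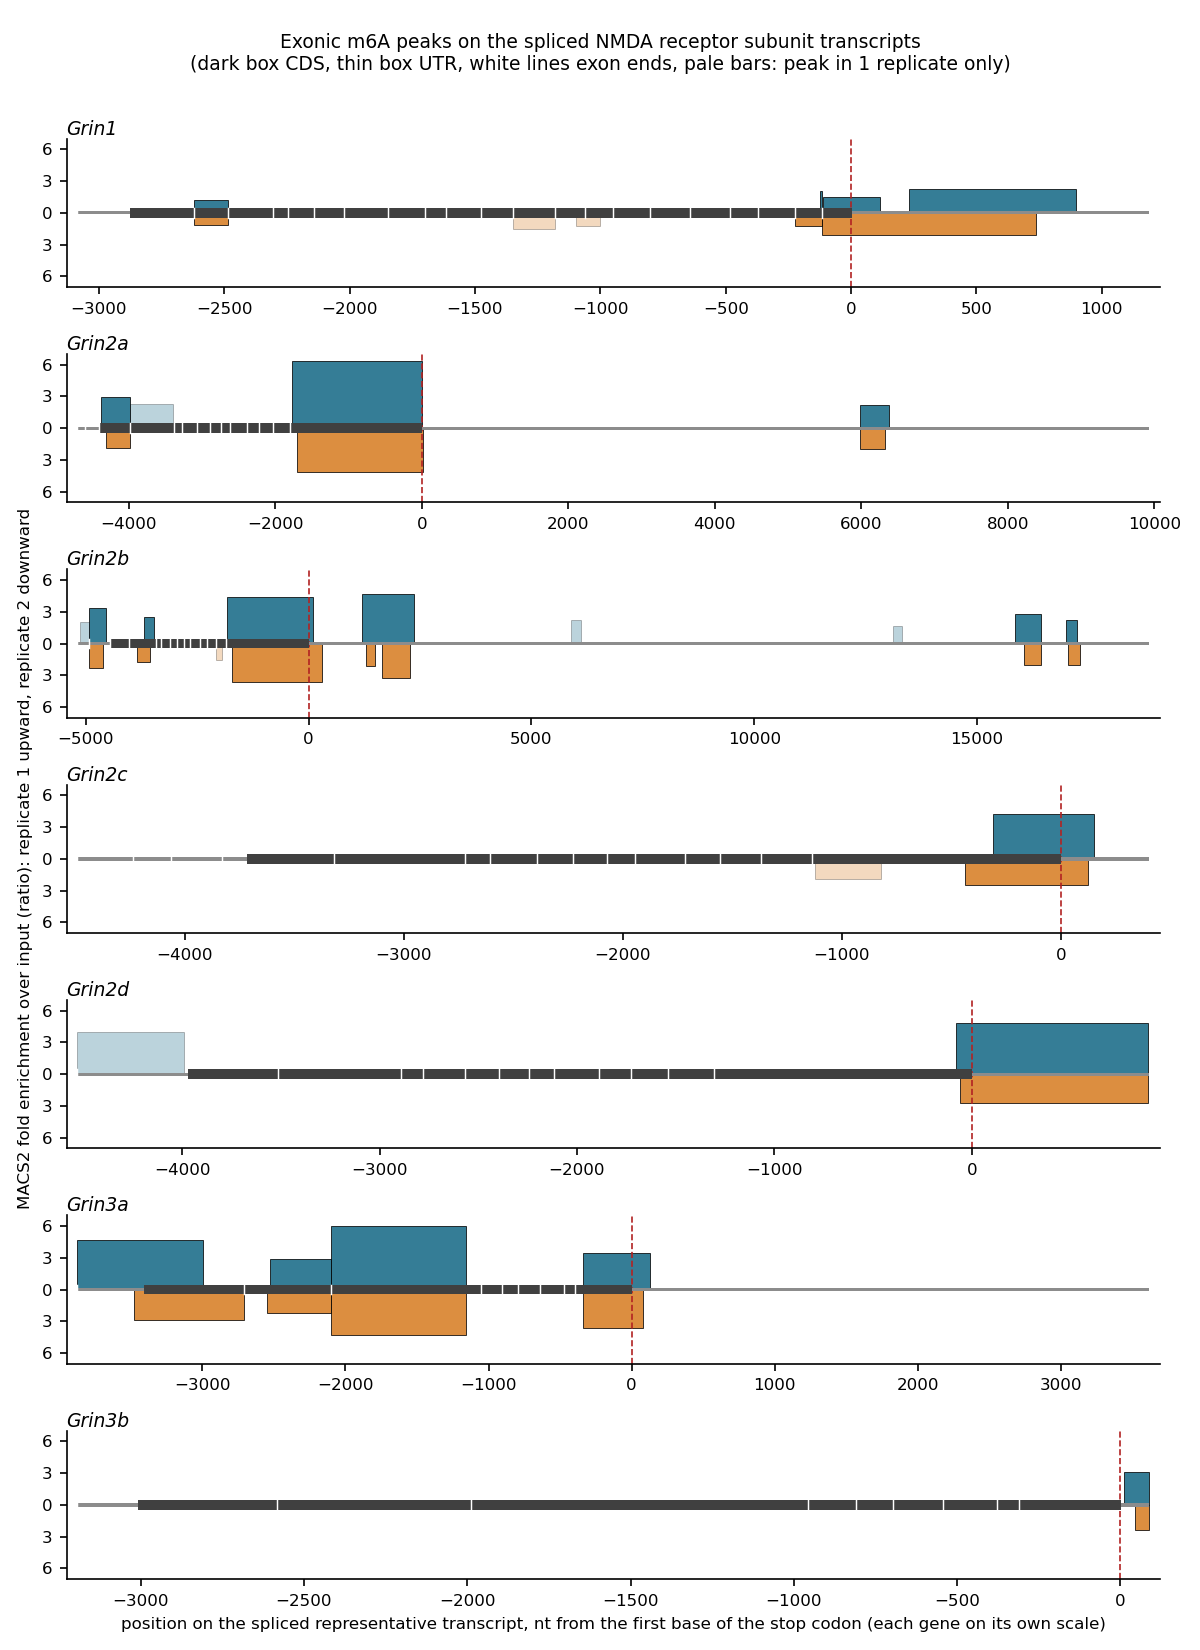
Exonic m6A peaks of replicate 1 (blue, upward) and replicate 2 (orange, downward) on the spliced representative transcript of each gene, with MACS2 fold enrichment over input on the y axis and nt from the first base of the stop codon (red dashed line) on the x axis, each gene on its own x scale. Dark boxes are CDS, thin boxes UTRs, white lines exon ends and pale bars peaks without a partner in the other replicate, and only the bases of a peak that lie on the transcript are drawn. The wide bars of Grin2a and Grin2b fill the CDS of the last exon up to the stop codon, that of Grin2d lies in its 3′UTR, and the tallest bar of Grin3a lies over its exon 3.

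Grin1 (chr2:25291181-25319187, minus strand) had a strongest peak below that of each other gene of the family in both replicates. Its representative transcript has 21 exons and 959 codons, of which the last exon holds 117 nt of CDS. A shared interval in the 3′UTR (chr2:25291635-25292137) was enriched 2.24-fold in replicate 1 and 2.06-fold in replicate 2. The interval across the stop codon (chr2:25292256-25292480) had 1.53 in replicate 1, and in replicate 2 it belonged to the same peak as the 3′UTR interval, at 2.06. Replicate 2 thus had 1 peak where replicate 1 had 2. An interval at the edge of exon 20 (chr2:25294341-25294448) had 2.06 and 1.24, and the interval that covered all 135 nt of exon 2 (chr2:25316690-25316954) had 1.21 and 1.13. The last pair stood among the lowest of all exonic peaks, with 0.406% of replicate 1 peaks and 0.170% of replicate 2 peaks at or below it. In each replicate all 4 Grin1 intervals lay below the exonic median. A further 2 peaks in replicate 2 alone (1.27 and 1.52) overlapped exons of Grin1os, an antisense gene, and the peak lists carry no strand.

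Grin2a (chr16:9567898-9995560, minus strand) encodes GluN2A, the GluN2 subunit that becomes prevalent in forebrain after birth. Its last coding exon holds 1800 nt of CDS, from codon 866 of 1464, followed by a 3′UTR of 9929 nt. A shared interval of 1699 nt (chr16:9577833-9579531) covered codons 897 to 1463 with a fold enrichment of 6.36 in replicate 1 and 4.12 in replicate 2. Among exonic peaks of the family these values were the highest in replicate 1 and the next to highest in replicate 2. They stood at percentiles 97.4 and 96.6 of all exonic peaks. Only 117 of the 22338 exonic shared intervals (0.524%) were as wide, against a median of 337 nt. The peak called in replicate 1 began 20 nt into the last exon and ended 4 nt before the stop codon, and that of replicate 2 began 95 nt into the exon and ended 10 nt past the first base of the stop codon. The peak thus took in nearly the whole coding part of the exon in both replicates and little of the 3′UTR.

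The rest of the spliced Grin2a transcript was marked less. An interval in exon 3 (chr16:9992131-9992451), which holds the start of the CDS, had 2.96 in replicate 1 and 1.90 in replicate 2. The 3′UTR held 1 shared interval, centred 6152 nt past the stop codon (chr16:9571510-9571845), with 2.17 and 1.95. The last-exon CDS exceeded this 3′UTR interval by 1.31 on the centred log2 scale (1.55 in replicate 1, 1.08 in replicate 2) and the exon 3 interval by 1.11, a difference nearly equal in both replicates. Each difference has a standard error of 0.335 from the replicate SD, so that they were 3.93 and 3.32 times their error. A further interval (chr16:9994972-9995170; 1.98 and 2.09) lay on an upstream exon of another Grin2a transcript, and a peak over exon 4 (chr16:9761408-9761991) was called in replicate 1 alone, at 2.33.

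Grin2b (chr6:135713233-136173511, minus strand) encodes GluN2B, the prevalent GluN2 subunit of the developing forebrain. It had the most exonic intervals of the family, on a transcript with 1851 nt of CDS in the last coding exon and a 3′UTR of 18865 nt. The interval over the last-exon CDS (chr6:135732012-135733829) was 1818 nt wide, ran from codon 906 to the last codon, 1482, and 86 nt into the 3′UTR, and was enriched 4.37-fold in replicate 1 and 3.65-fold in replicate 2. Only 90 of the exonic shared intervals (0.403%) were as wide. An exon of Gm14329, a lincRNA on the plus strand, overlaps it, and the 2 transcripts cannot be told apart in these lists.

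Unlike in Grin2a, an interval of the Grin2b 3′UTR was as enriched as the last-exon CDS. This interval, centred 1966 nt past the stop codon (chr6:135729819-135730449), had 4.67 in replicate 1 and 3.22 in replicate 2. The CDS interval differed from it by 0.04 on the centred log2 scale (-0.10 in replicate 1, 0.18 in replicate 2), well within the error of 0.335. A neighbouring interval (chr6:135730619-135730821) came from the same replicate 1 peak and had 2.16 in replicate 2. Near the far end of the 3′UTR a pair of weaker intervals lay 16243 and 17137 nt past the stop codon, with 2.77 and 2.06 for the former and 2.20 and 2.02 for the latter. In all, 7.93% of the 3′UTR lay inside shared intervals, against 93.6% of the last-exon CDS. Upstream, the 5′UTR in exon 2 (chr6:136171561-136171970) had 3.33 and 2.27, and exon 4 (chr6:135923008-135923134) had 2.54 and 1.73. The peaks of a single replicate were 3 in replicate 1 (1.66 and 2.24 in the 3′UTR and 2.01 in exon 1, where Gm26653 overlaps on the plus strand) and 1 in replicate 2 (1.57, exon 13).

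The other GluN2 genes also have long last coding exons, with 1137 nt of CDS in Grin2c and 1308 nt in Grin2d. Shared intervals covered only 27.4% of this CDS in Grin2c and 4.89% in Grin2d. Grin2c (chr11:115249169-115267243, minus strand), known for its expression in cerebellar granule cells, had 1 shared interval of 431 nt across the stop codon (chr11:115249451-115249881). It spanned codons 1137 to 1239 and 120 nt of 3′UTR, with 4.25 in replicate 1 and 2.44 in replicate 2. A peak at the start of the last exon (chr11:115250395-115250696) was called in replicate 2 alone, at 1.89, and the CDS between these peaks held none. A replicate 1 peak (chr11:115264986-115265397; 2.88) lay on an exon of another Grin2c transcript.

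Grin2d (chr7:45831883-45878378, minus strand), a subunit gene of interneurons and of the brainstem and midbrain, was marked past the stop codon. Its interval of 955 nt (chr7:45831889-45832843) held 64 nt of CDS and 891 nt of 3′UTR, which is 99.3% of that UTR, with 4.85 in replicate 1 and 2.74 in replicate 2. The Grin2c and Grin2d stop codon intervals differed by 0.18 on the centred log2 scale, less than the error of 0.335. Grin2d had a second interval (chr7:45869950-45870127; 3.88 and 2.33) on an exon of another transcript. A wide replicate 1 peak over the first exon (chr7:45866590-45867730; 3.95) had no partner in replicate 2 and was the strongest of the 10 exonic peaks seen in a single replicate.

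Grin3a (chr4:49661611-49845744, minus strand), whose product GluN3A is most abundant in the first weeks after birth, was marked along its CDS. All 4 of its intervals lay above the exonic median in both replicates. The strongest covered 942 of the 1048 nt of exon 3 (chr4:49770525-49771466; codons 435 to 749) with 6.05 in replicate 1 and 4.30 in replicate 2, at percentiles 96.4 and 97.6. It equalled the Grin2a last-exon interval within error (difference -0.0046 on the centred log2 scale). The interval across the stop codon (chr4:49665148-49665565; codons 1023 to 1135 and 78 nt of 3′UTR) had 3.47 and 3.58. Exon 3 was 0.53 higher on the centred log2 scale than this last-exon interval (0.80 and 0.26), 1.59 times the error. Exon 1 (chr4:49844674-49845153), with the start codon inside, had 4.71 and 2.90, and exon 2 (chr4:49792393-49792850) had 2.86 and 2.22. Of the CDS before the last exon, 58.9% lay inside shared intervals, compared with 12.4% in Grin2a, 5.28% in Grin1, 4.89% in Grin2b and none in Grin2c and Grin2d.

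Grin3b (chr10:79970715-79977190, plus strand), known from motor neurons, had no peak within its CDS in either replicate. Its exons 1, 2 and 3 measure 611, 593 and 1033 nt, so that long exons without a peak occur in the family. The 1 interval assigned to it (chr10:79977148-79977878; 3.08 in replicate 1 and 2.41 in replicate 2) overlapped only 43 nt of the Grin3b 3′UTR, and most of it lay past the end of the gene over exons of Tmem259, which runs on the opposite strand. Without intervals that touch exons of another gene, an alternative chosen after seeing the data, 21 intervals in 6 genes were left. Grin2b then kept 6 and lost the interval over its last-exon CDS, and Grin3b had none.

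Across the 23 intervals, fold enrichment ran from 1.21 to 6.36 in replicate 1 and from 1.13 to 4.30 in replicate 2. In replicate 1, 15 of them lay above the exonic median, and in replicate 2, 12 did. The same 12 lay above it in both replicates and 8 lay below it in both. The median of all exonic Grin peaks was 2.87 in replicate 1 and 2.13 in replicate 2, close to the medians of all exonic peaks given above. The range within the family was wide. The Grin2a last exon exceeded the strongest Grin1 interval by 1.25 on the centred log2 scale, in the same direction in both replicates and 3.74 times the error. These are the highest exonic interval of the family and the top of its lowest gene, so that a wide gap is partly built into the choice. The Grin2a and Grin2b last exons differed by 0.36 (0.54 and 0.17), 1.07 times the error. Peaks seen in a single replicate had medians of 2.29 in replicate 1 (6 peaks, 1.66 to 3.95) and 1.55 in replicate 2 (4 peaks, 1.27 to 1.89), against 3.02 and 2.25 for the shared peaks.

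**Figure D2:**
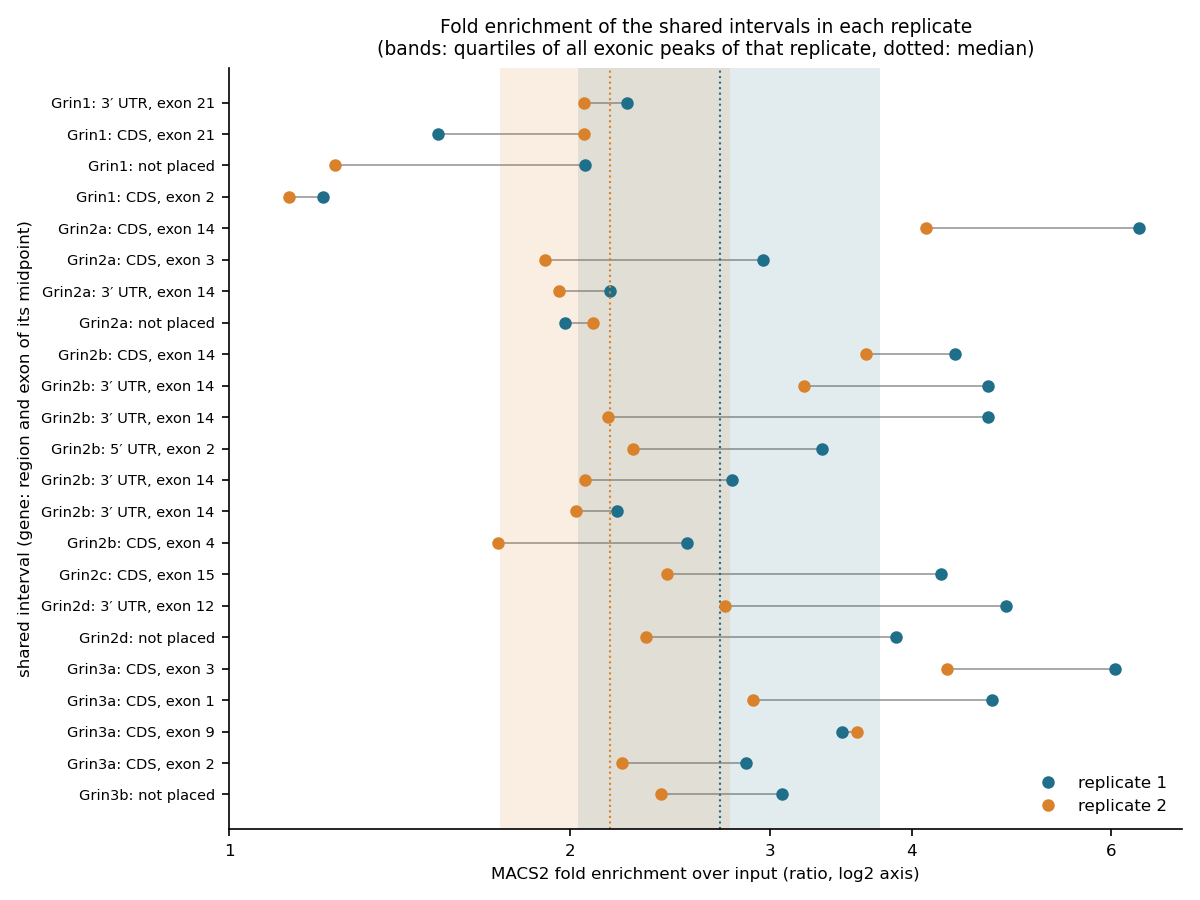
MACS2 fold enrichment over input (x axis, ratio on a log2 axis) of the 23 shared intervals (y axis, by gene and by the region and exon of the midpoint) in replicate 1 (blue) and replicate 2 (orange), joined by a line, with bands for the quartiles and dotted lines for the medians of all exonic peaks of each replicate. In 20 of 23 intervals the replicate 1 value is the higher, all Grin1 points lie below the median of their replicate, and the Grin2a last exon (exon 14) and Grin3a exon 3 lie farthest to the right in both replicates.

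The position of the intervals was compared with that of all shared intervals. Of the 23 intervals, 19 had their midpoint on the representative transcript, 11 in CDS, 7 in a 3′UTR and 1 in a 5′UTR. The midpoint fell in the last coding exon, the exon that holds the stop codon, in 12 of 19 (63.2%, 95% Wilson interval 41.0 to 80.9%), beside 47.5% of all 19713 placed intervals. The interval includes that background. Midpoints no farther than 200 nt from the stop codon made up 3 of 19 (15.8%), beside 23.0% of all. The intervals of 1 transcript share its RNA and are not independent.

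Coverage of the last-exon CDS separated the GluN2 genes. Shared intervals covered 94.4% of it in Grin2a and 93.6% in Grin2b, but 27.4% in Grin2c and 4.89% in Grin2d. The Grin2b value rests on the interval that an exon of Gm14329 on the opposite strand also overlaps. Among the 885 genes with several exons, a shared interval and at least 1000 nt of CDS in the last coding exon, the median was 58.3% (quartiles 30.1 and 83.7%), and coverage reached 80% in 28.2%. Grin2a and Grin2b were past that mark and above the upper quartile, with 9.83% and 10.7% of these genes covered at least as far. Grin2c and Grin2d lay below the lower quartile, with 77.6% and 95.7% covered at least as far. High coverage of a long last-exon CDS was therefore not rare, and 2 of the 4 GluN2 genes had it. The shorter last-exon CDS of Grin1 (117 nt) and Grin3a (400 nt) was covered over 96.6% and 85.0%.

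**Figure D3:**
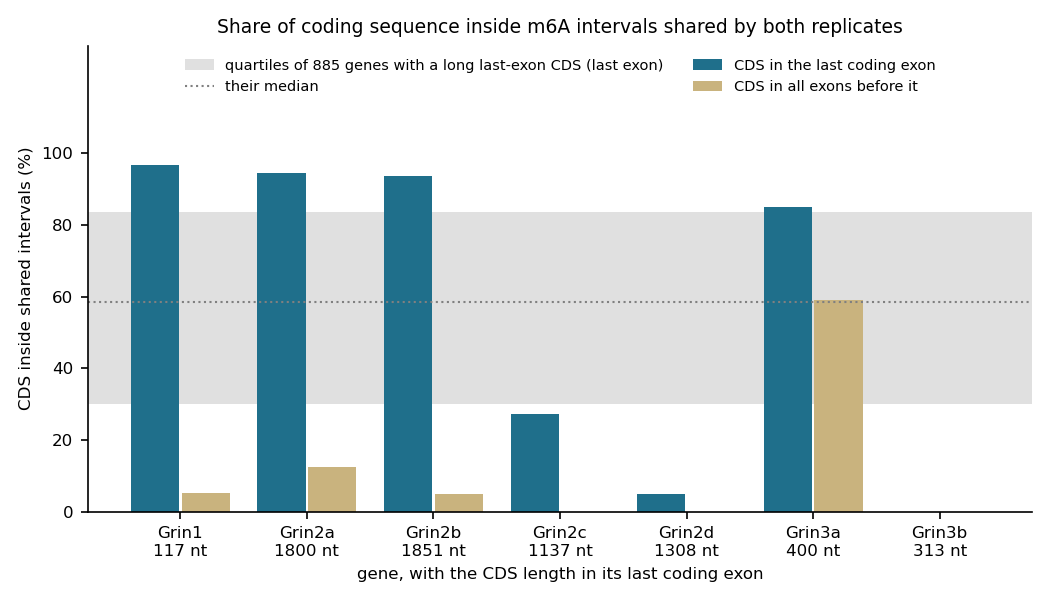
Percent of CDS inside shared intervals (y axis) for each gene (x axis, with the CDS length in its last coding exon), in the last coding exon (blue) and in all exons before it (sand), with a grey band for the quartiles and a dotted line for the median of last-exon coverage over 885 genes with at least 1000 nt of CDS there. Grin2a (94.4%) and Grin2b (93.6%) stand above the band and Grin2c (27.4%) and Grin2d (4.89%) below it, and Grin3a alone has over 50% of its earlier CDS covered.

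The GluN2 last exons differ in sequence as well as in their marks. Aligned protein sequences of Grin2a and Grin2b were identical at 71.4% of residues before the last exon and at 34.3% within it. For Grin2c and Grin2d the values were 65.6% and 33.8%, and for the other pairs identity within the last exon was 23.9 to 27.8%. By bases, Grin2a and Grin2b were identical at 49.1% within the last exon and the other pairs at 34.4 to 44.2%. Grin2a and Grin2b were thus the most alike pair there by bases. By residues they were nearly level with Grin2c and Grin2d (34.3% and 33.8%). A link between sequence identity and coverage was not tested. Only 2 of the GGACT matches in the CDS of Grin2a fell on a GGACT match of Grin2b in this alignment, at codons 285 and 1146 of Grin2a (286 and 1150 of Grin2b). The match at codons 1146 and 1150 lay inside shared intervals of both genes, and that at codon 286 inside the exon 4 interval of Grin2b. Its Grin2a counterpart at codon 285 lay inside the exon 4 peak called in replicate 1 alone, at 2.33.

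Exon length was compared with the presence of a shared interval in the representative transcripts. Of the 22 Grin exons of 400 nt or more, 12 held bases of a shared interval, and of the 72 shorter exons, 3 did. Over all transcripts of genes with a shared interval, 73.0% of 14273 exons of 400 nt or more and 8.94% of 100671 shorter exons held some. A count of any base favours long exons, which offer more bases. Covered over at least 50% were 5 of the 22 long and 1 of the 72 shorter Grin exons. Over all transcripts these shares were 26.6% and 7.94%. The 3 shorter Grin exons with any base were exons 2 and 20 of Grin1 and the last exon of Grin3b (399 nt). Long exons without a shared interval were exon 1 of Grin1, exon 4 of Grin2a, exon 3 of Grin2b, exons 4 and 5 of Grin2c, exons 1 and 2 of Grin2d and exons 1 to 3 of Grin3b.

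**Figure D4:**
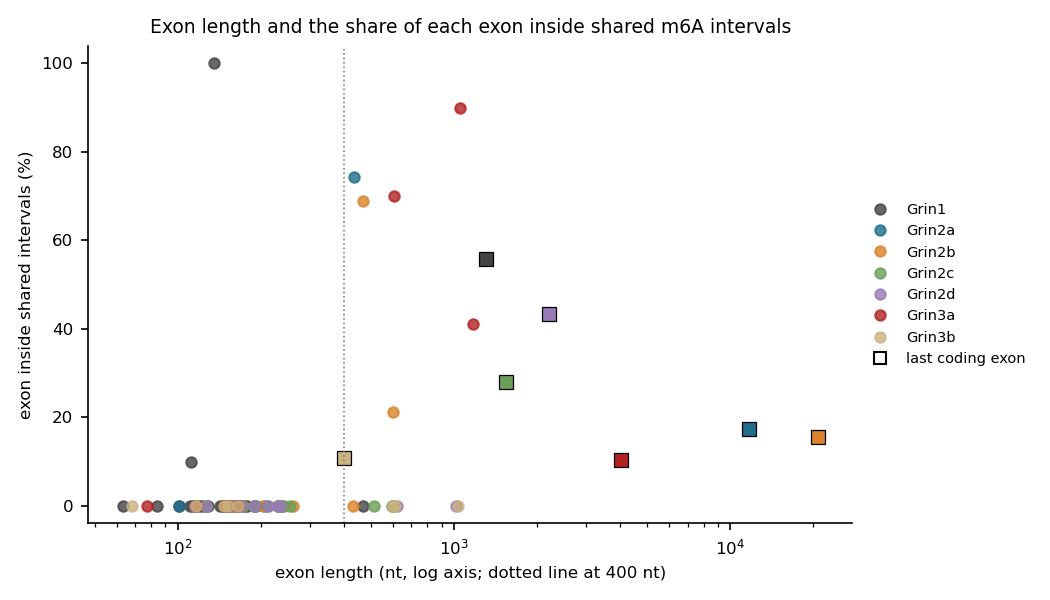
Percent of each exon inside shared intervals (y axis) against exon length in nt (x axis, log scale, dotted line at 400 nt) for all exons of the 7 representative transcripts, with squares for last coding exons, which include the 3′UTR bases they hold. Exons with any coverage lie mostly right of the line (12 of 22 against 3 of 72), and the last exons of Grin2a and Grin2b are covered over 17.4% and 15.6% of their length, which includes their long 3′UTRs.

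Motifs were counted on the transcript strand. GGAC occurred 79 times in the 10599 nt of Grin transcript inside shared intervals and 187 times in the 53471 nt outside, 7.45 against 3.50 per kb, a ratio of 2.13. Over all representative transcripts with a shared interval the densities were 6.08 and 3.85 per kb, a ratio of 1.58. In CDS alone, an alternative chosen after seeing the data, the ratio was 1.62 in Grin transcripts and 1.26 in all. The density was higher inside than outside in Grin1 (5.72 against 4.41 per kb), Grin2a (6.37 and 3.50), Grin2b (6.80 and 2.31), Grin2c (13.9 and 5.60), Grin2d (8.38 and 4.02) and Grin3a (8.84 and 3.25), and the 43 nt of Grin3b held none. Grin2b, with the longest 3′UTR, had the lowest density outside. In windows of 100 nt around the midpoints, 7 of 19 (36.8%) held GGAC, a share below the 46.9% of all placed intervals.

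GGACT, which contains GGAC, was found 66 times in the 7 transcripts, 39 of them in CDS. Of these, 19 lay inside shared intervals, 16 in CDS. The counts inside were 5 of 22 in Grin2a, 4 of 16 in Grin2b, 2 of 6 in Grin2c, 2 of 5 in Grin2d and 6 of 11 in Grin3a, and none of 3 in Grin1 and none of 3 in Grin3b. The 13 matches printed above are all those in the last-exon CDS intervals of Grin2a and Grin2b and in the exon 3 interval of Grin3a. Intervals without a match included those of Grin1 but also the Grin2b 3′UTR interval at 4.67 and 3.22 and Grin3a exon 1 at 4.71 and 2.90, while the Grin2b exon 4 interval at 2.54 and 1.73 held 1. These matches are a description of the letters in the intervals.

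Other glutamate receptor genes were set beside the family. All 9 AMPA and kainate receptor genes had a shared interval (23 in all, most in Grik3), with 68.6% of replicate 1 peaks and 67.7% of replicate 2 peaks shared and median fold enrichments of 2.42 and 2.08. Of the 8 metabotropic receptor genes 7 had one (25 in all, most in Grm2, none in Grm6), with 69.7% of replicate 1 peaks and 92.0% of replicate 2 peaks shared and medians of 2.39 and 2.47. None of these 17 genes has 1000 nt or more of CDS in its last coding exon, so that no counterpart of the GluN2 exon exists among them. Differences between these lists were not tested.

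Of 37 genes for NMDA receptor scaffolds, kinases and other signalling partners, 36 had a shared interval, 122 in all. Their exonic peaks had a median fold enrichment of 2.16 in replicate 1 and 1.79 in replicate 2, with 75.9% and 74.8% of them shared. The postsynaptic scaffold gene Shank1 (3.38 and 2.81) and the kinase gene Camk2a (4.23 and 2.56), whose product binds the GluN2B tail, had 7 each. Homer1 (4.11 and 5.56), a scaffold linking metabotropic receptors, and Dlg4 (4.03 and 1.85), which encodes PSD-95, had 6 each. Ppp3r1, a calcineurin subunit gene, had none.

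The genes most like Grin2b were sought among 304 genes with their strongest shared pair in the last coding exon and a last-exon CDS within 20% of the length in Grin2b. By the summed absolute log2 difference in fold enrichment over both replicates, the nearest were Zfp39 (0.0416), Zfp235 (0.0638), Foxc1 (0.0656), Zfp184 (0.0838) and Fbxo34 (0.0850). Their last-exon CDS was covered over 34.3%, 46.7%, 44.6%, 23.4% and 66.2%, less in each than the 93.6% of Grin2b. Several exons were not required here, and Foxc1 has only 1, so that its value is for its whole CDS. Genes of nearly equal enrichment thus differed in how much of the exon the peaks took in.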

How the data were processed

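Per the labels and the methods of the study, m6A-seq was performed on fragmented mRNA of whole brain, and the authors aligned reads to mm10 with TopHat2 (2.0.9 in the submitters' processing notes) and called peaks with MACS2 for each IP replicate against its own input, without pooling and with duplicate reads kept. The deposited value of each peak is its fold enrichment, a linear ratio, with no count, p-value or strand. Keeping duplicates can raise the ratio where few molecules were read, and low input coverage makes the ratio depend on the caller's control estimate.

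Peaks were laid over exons of GENCODE M21 (GRCm38, patch 6, the mm10 chromosomes), with the longest CDS as representative transcript. Transcript sequences came from the same release. Overlaps were computed in Python 3.11.15, were identical with bedtools 2.31.1 and were tested on simulated data. Proteins were translated from the transcripts and aligned with Biopython 1.88 (BLOSUM62, gap penalties 11 and 1). Members and lists were chosen with earlier results of these data known, and no test was made over them. Named genes were all 7 Grin genes, the gene with most intervals of each receptor list, the 5 partner genes with most intervals (1 of them is not reported here) and all partner genes with none. Alternatives were other overlap rules, fold enrichment minima, merging, other exon rules and motifs, and each replicate alone.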

Additional observations from a re-analysis of the deposited data

Results flagged for a closer look

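Peaks in introns lie outside the exonic comparisons. Over introns of the 7 genes replicate 1 had 16 peaks and replicate 2 had 5, and 5 in each were shared: 3 in Grin2a, 1 in Grin2c and 1 in Grin2d. Over all protein-coding genes, 445 of 3409 intronic peaks of replicate 1 (13.1%) and 471 of 605 of replicate 2 (77.9%) were shared. The 3 Grin2a intervals lay in intron 3, which spans 230136 nt. Their fold enrichment was 3.48 in replicate 1 and 3.51 in replicate 2 for the first, 6.20 and 4.57 for the second, and 3.80 and 5.03 for the third. The second was thus close to the last-exon CDS of Grin2a (6.36 and 4.12), and replicate 1 alone had 4 more peaks in this intron, at 2.72 to 5.11. These peaks were 20685 to 72056 nt from the nearest annotated Grin2a exon and touched no exon of another gene. The Grin2c interval (2.22 and 2.55) lay 617 nt from an exon in replicate 1 and 538 nt in replicate 2. The Grin2d interval (3.68 and 2.26) overlapped exons of Kdelr1 on the opposite strand. Unspliced RNA and unannotated exons were not tested.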

How the results depend on the processing

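Minima of fold enrichment were applied to the peaks of both lists, although values ran higher in replicate 1. The number of shared intervals was 13 with midpoints within 100 bp and 5 among peaks enriched at least 3-fold in both lists, where 3 genes (Grin2a, Grin2b and Grin3a) kept one. The share of replicate 1 peaks was 46.4% with midpoints within 100 bp and 41.7% (5 of 12) with the 3-fold minimum. In the latter a partner below 3-fold in replicate 2 did not count. Of these 12 peaks, only the Grin2d peak at 3.95 had no partner at all in replicate 2. That of replicate 2 was 65.4% with an overlap of 50% of both peaks, 50.0% with midpoints within 100 bp, and 94.1% and 100% with minima of 2-fold and 3-fold. The ratio of motif density inside over outside was 1.46 for DRACH, 1.68 in windows of 100 nt and 1.62 in CDS only, and 1.82 to 1.99 with 1 replicate left out. The cause of these moves was not tested. Under the other alternatives run, the number of shared intervals was 16 to 28 and the genes with one numbered 6 or 7, the share of replicate 1 peaks was 60.7 to 80%, that of replicate 2 peaks was 83.3 to 87.1%, the share of intervals in the last coding exon was 54.5 to 71.4%, and the median fold enrichment ran from 2.86 to 3.02 (replicate 1) and from 2.11 to 2.41 (replicate 2). With 1 replicate left out nothing could be shared, and the exonic peaks of the remaining list were counted in place of shared intervals. These were 26 without replicate 1 and 28 without replicate 2. The motif density was higher inside than outside under each alternative run. No paired analysis was possible because no processed files of the input samples were analysed here and no result rests on a test between groups. With no read counts, depth limits on missing peaks could not be given, and 2 replicates stand behind each value.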
